A study of Rattus norvegicus with 6 samples.

Results

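The proteasome subunit genes of cultured rat fat stromal cells were described as one module. Members were all rows of the deposited count table whose symbol is Psm, a letter from a to g and a number, which gave 48 of 21857 rows. They comprised 16 core genes (Psma and Psmb), 3 immunoproteasome genes (Psmb8, Psmb9 and Psmb10), 6 base ATPase genes (Psmc), 14 lid and other Psmd genes, and 9 regulator genes (Psme, Psmf and Psmg). RNA was sequenced from adipose-derived mesenchymal stem cells of Sprague Dawley rats, which are stromal cells grown out of fat tissue. They were cultured in high-glucose DMEM made without branched chain amino acids (BCAA: leucine, isoleucine and valine), with serum and antibiotics. For 12 h the cells received vehicle (3 libraries) or 3.432 mM BCAA (3 libraries), and both groups also received 100 µM of the oxidant hydrogen peroxide. No group without the oxidant was analysed here, and the labels give neither the mixture of the 3 amino acids nor the number of animals or separate cultures, so p-values reflect only how far these libraries differ among themselves, and that spread could be technical.

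The proteasome is the protease that degrades most ubiquitin-tagged proteins in the cytosol and nucleus. Its barrel-shaped core is built of outer rings of alpha subunits and inner rings of beta subunits, and 3 of the beta subunits carry the proteolytic sites. A regulatory particle caps the barrel: its base holds a ring of ATPases that unfold substrates, and its lid holds the enzyme that removes ubiquitin. Interferons induce alternative catalytic subunits, which form the immunoproteasome and alter the peptides offered for antigen presentation. Genes of the constitutive subunits are known to be raised together by the transcription factor NFE2L1 when proteasome activity is short.

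Library totals ran from 12725344 to 15739731 counts. Levels are given as CPM, the usual counts normalized to library size, with sizes scaled by the TMM method. Stromal markers were abundant, with Cd44 at 1395 to 1611 CPM and the collagen gene Col1a1 at 5450.5 to 8481 CPM. Leukocyte markers were present, 9 of the 10 symbols being found and none of them at 0. The leukocyte phosphatase gene Ptprc lay between 14.1 and 17.6 CPM, Laptm5 between 67.2 and 86.6 CPM and Cd14 between 96.7 and 111 CPM. Every BCAA library lay above every vehicle library in Laptm5 (log2 fold change 0.28, SE 0.07; edgeR adjusted p = 0.13). In Cd14 every BCAA library lay below (log2 fold change -0.12, SE 0.07; edgeR adjusted p = 0.52). The groups overlapped in the other leukocyte markers found. The adipocyte markers Adipoq, Plin1, Lep and Cidec were each under 1 CPM in every library, whereas Fabp4 was at 3.62 to 5.09 CPM with vehicle and 5.64 to 6.34 CPM with BCAA, and Lpl at 348 to 443 CPM over all libraries. Of the endothelial markers, Cdh5, Vwf, Kdr and Emcn were each under 1 CPM, and Tek and Tie1 lay between 2.60 and 5.40 CPM. Smooth muscle markers moved with the groups: of 8 genes found 7 were tested, and 6 had a log2 fold change below 0. Of these, edgeR called 2 lower (Acta2 and Tagln). The summed level was 888 to 954 CPM with vehicle and 611 to 637 CPM with BCAA. Most of that sum was Tagln, at 758 to 820 CPM with vehicle and 507 to 534 CPM with BCAA. The part of such cells or such a state in the values of the proteasome genes was not tested.

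No proteasome gene passed the threshold in the comparison of BCAA with vehicle. Of the 48 members, 45 passed the filter on low counts and were tested, and 0 had an adjusted p under 0.05 (edgeR's quasi-likelihood test, Benjamini-Hochberg over all 12298 genes tested), where 0.228% of all genes tested were called. DESeq2 called 127 of the 12298 genes tested, and 0 of them were members. The differences were small and mostly of one sign. With BCAA, 41 of 45 members had a log2 fold change below 0, against 49.2% of all genes tested. Without scaling factors this held for 35 of 45, as Psma5, Psmc6, Psmd2, Psmd8, Psmd11 and Psme3 turned. The median over all genes was then 0.033, and 41 of 45 members lay below it. In the main analysis 41 of 45 members also lay below the median over all genes, against 50% of all genes. There the median log2 fold change was -0.12 over the members and 0.0035 over all genes. Members ran from -0.26 (Psmb2) to 0.14 (Psme4). At an unadjusted p under 0.05, 10 members were lower and 0 higher, where 5.84% of all genes tested were lower and 5.95% higher at that level. Those shares are edgeR's. DESeq2 put 7 members there, all of them lower, and its share over all genes is not given here. All 3 BCAA libraries lay below all 3 vehicle libraries in 10 members and above them in 0, where 8.76% and 9.29% of all genes tested did so. The members are not independent of each other, as many can shift together in 1 library. Nor were all genes matched to them for precision: the median SE was 0.078 over the members and 0.11 over all genes. These counts were therefore described and not tested.

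**Figure D1:**
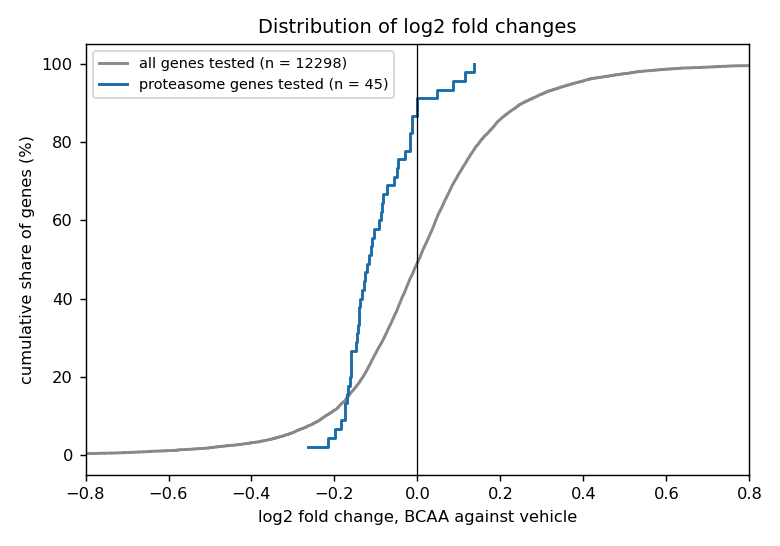
Cumulative share of genes (%) against the log2 fold change, BCAA against vehicle, for the 45 proteasome genes tested (blue) and all 12298 genes tested (grey). The blue curve lies left of the grey curve over most of its length, with medians of -0.12 and 0.0035, and is narrower.

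**Figure D2:**
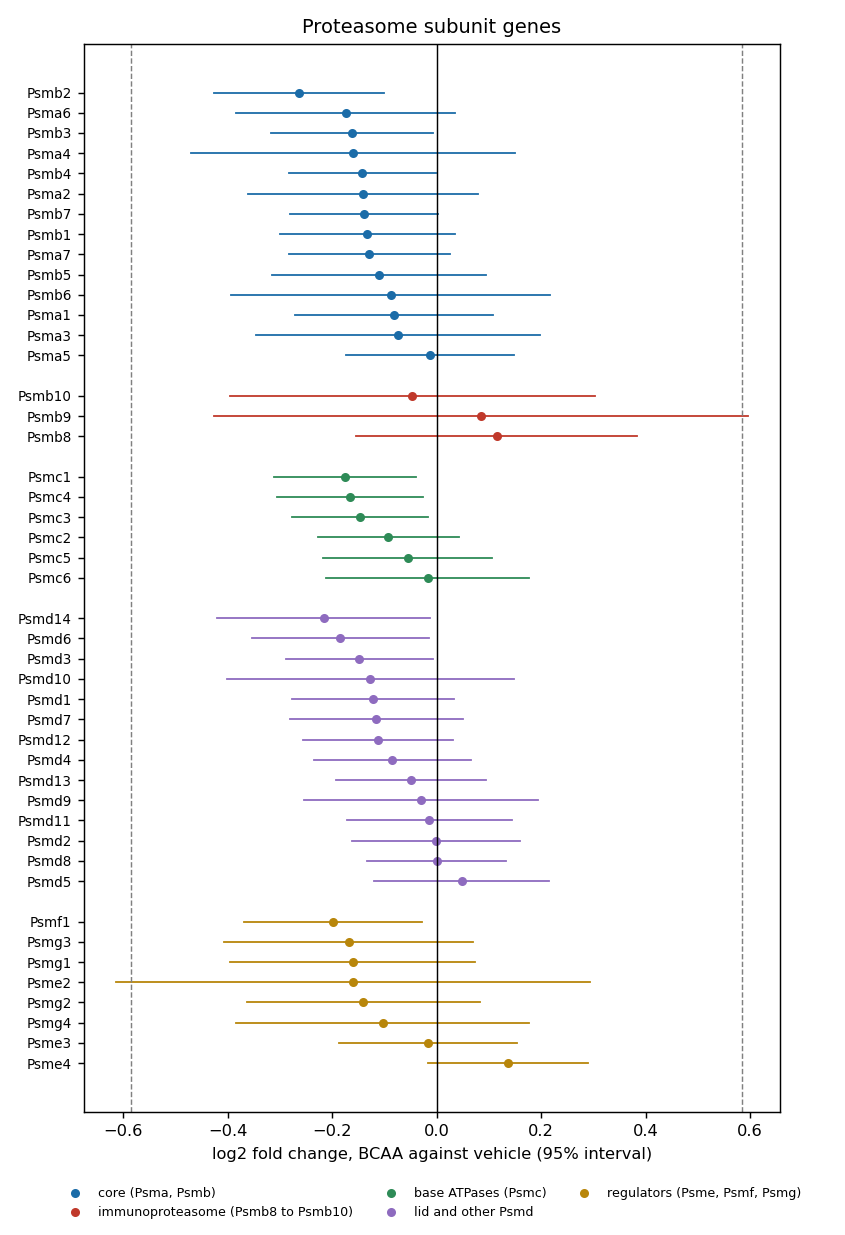
Log2 fold change, BCAA against vehicle, of each of the 45 proteasome genes tested (points) with its 95% interval (lines), coloured by class; dashed lines mark a 1.5-fold change in either direction. Intervals of 43 genes lie inside the dashed lines, those of Psmb9 and Psme2 cross one, and 10 lie wholly below 0.

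The intervals bound the difference between these libraries only. As the number of animals or separate cultures is not given, the intervals may not cover the spread between those. For 43 of the 45 tested members the 95% interval of the log2 fold change lay within a 1.5-fold change in either direction, and the exceptions were the thinly counted Psmb9 and Psme2. In bulk RNA a lower share of counts for these genes can come from less of their RNA in each cell or from fewer cells that express them, and these cannot be told apart.

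The direction of the module rested in part on the libraries numbered 1 in each group. Vehicle replicate 1 held the highest value of 24 of the 45 members, against 23.6% of all genes tested. BCAA replicate 1 held the lowest value of 26 members, against 19.3% of all genes tested. Summed over all members, the level was 6031, 5755 and 5575 CPM across the vehicle libraries, in the order of their replicate numbers, and 5191, 5455 and 5571 CPM across the BCAA libraries. The groups thus met at their edges, vehicle replicate 3 and BCAA replicate 3 being nearly equal. Without vehicle replicate 1, 32 of 45 members had a log2 fold change below 0 (median -0.07; 48.5% of all genes), and without BCAA replicate 1 also 32 (median -0.08; 50.8% of all genes). At an unadjusted p under 0.05 there were 11 members lower and 1 higher without vehicle replicate 1 (9.5% and 8.74% of all genes). Without BCAA replicate 1 there were 3 lower and 0 higher (4.03% and 3.79% of all genes), and edgeR called 0 members there (0.0564% of all genes). With both left out, a setting chosen after seeing these values, 26 of 45 were below 0 (median -0.023; 49.6% of all genes). There were then 9 members lower at an unadjusted p under 0.05 and 2 higher, against 9.96% and 8.96% of all genes tested.

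**Figure D3:**
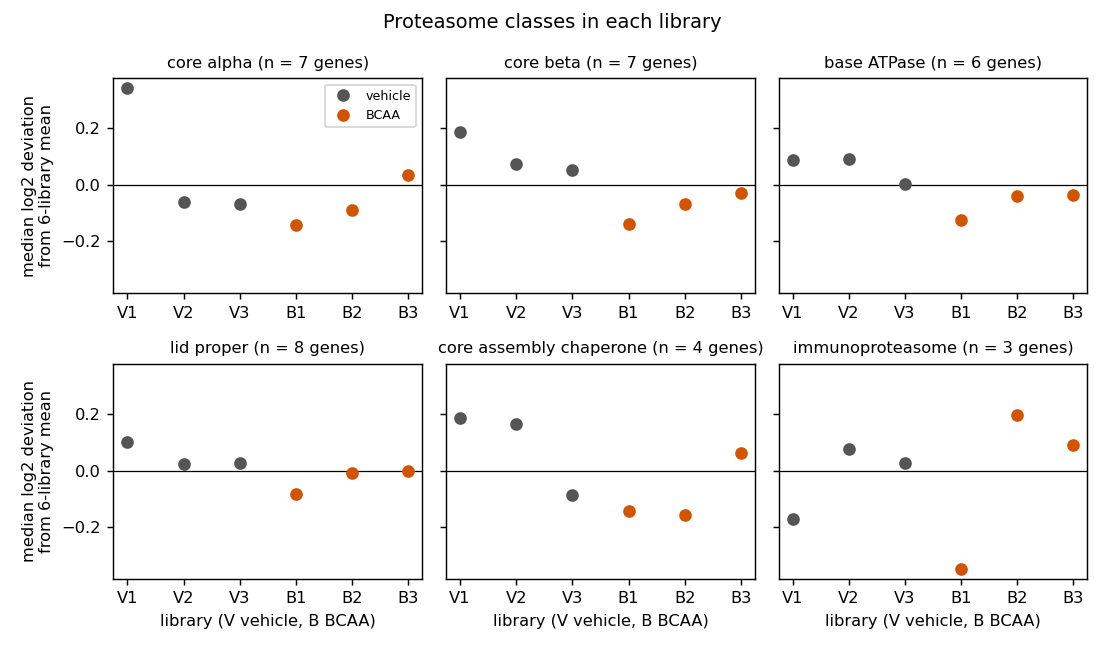
Median, over the genes of a class, of each library's log2 deviation from the gene's mean over all 6 libraries, for vehicle (grey, V1 to V3) and BCAA (orange, B1 to B3). In the alpha subunits vehicle replicate 1 stands alone at 0.34, whereas in the beta subunits, base ATPases and lid every vehicle point lies above every BCAA point.

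Promoter sequences were compared for short motifs known from widely expressed genes and from stress and interferon responses. The 300-base windows from 250 bases before to 50 bases after the transcription start were taken from the RefSeq promoter table (build GRCr8) by symbol, and 43 of the 48 members had one. Psma7, Psmb11, Psmd6, Psmd12 and Psmd14 had none there. Motifs were searched on both strands. The comparison took in all 33469 windows, more than the 21857 rows counted, so it was not matched to the members for expression. Whether an excess of a motif is particular to proteasome genes was not tested. A GC box (GGGCGG) was in 72.1% of the member windows and in 33.1% of all 33469 windows, and the ETS factor motif CCGGAAG was in 34.9% and 8.75%. CCAAT was in 48.8% and 37.5%, and TATAAA in 9.30% and 14.2%. The core of the antioxidant response element, to which NFE2L1 and NFE2L2 bind (TGACNNNGC), was in 18.6% of the member windows and 12.1% of all windows. Its 8 carriers, all tested, had a median log2 fold change of -0.10, and the 33 other tested members with a window had -0.12. The windows of Psmb2, the member with the smallest p, and Psmc1, the base gene with the smallest p, are shown because they carry the antioxidant and the ETS motif, given in capitals, at bases -68 and -21 from the start site.
Psmb2 (chr5:144254808-144255107, plus strand): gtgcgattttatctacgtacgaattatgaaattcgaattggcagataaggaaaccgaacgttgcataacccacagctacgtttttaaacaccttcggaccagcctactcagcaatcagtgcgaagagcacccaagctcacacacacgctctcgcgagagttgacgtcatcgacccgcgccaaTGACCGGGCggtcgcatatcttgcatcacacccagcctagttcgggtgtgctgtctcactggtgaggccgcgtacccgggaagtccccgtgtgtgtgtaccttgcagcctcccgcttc
Psmc1 (chr6:125122247-125122546, plus strand): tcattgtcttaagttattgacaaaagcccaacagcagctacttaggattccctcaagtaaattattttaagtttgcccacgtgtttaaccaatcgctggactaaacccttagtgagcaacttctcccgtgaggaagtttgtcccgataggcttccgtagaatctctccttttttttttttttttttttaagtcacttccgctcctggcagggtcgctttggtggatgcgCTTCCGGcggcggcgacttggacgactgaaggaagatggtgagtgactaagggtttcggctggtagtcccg
The match in Psmc1 reads on the opposite strand, as CTTCCGG, and a match describes letters only, not binding.

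No beta subunit gene of the core was called. All 7 tested genes (Psmb1 to Psmb7) had a log2 fold change below 0, from -0.26 (Psmb2) to -0.09 (Psmb6) with a median of -0.14. At an unadjusted p under 0.05, 3 of them were lower, against 5.84% of all genes tested. Without BCAA replicate 1 this held for 1 of the 7 (4.03% of all genes). Psmb2, a structural beta subunit, was at 121, 104 and 105 CPM with vehicle, replicates 1 to 3 in turn as for all values by library here, and at 89.4, 93.1 and 93.2 CPM with BCAA. Its groups did not overlap, and vehicle replicate 1 stood above the other 5 libraries. This gave a log2 fold change of -0.26 (SE 0.08; edgeR adjusted p = 0.17), which is 1.20-fold lower. This sign held in each of the 12 alternative analyses, and the lowest adjusted p among them was 0.091. Psmb4, another structural subunit, was at 232, 234 and 228 CPM with vehicle and at 195, 216 and 219 CPM with BCAA. The vehicle libraries were tight here and every BCAA library lay below them (log2 fold change -0.14, SE 0.07; edgeR adjusted p = 0.42). Psmb3, also a structural beta subunit, was at 182, 171 and 155 CPM with vehicle and at 146, 152 and 157 CPM with BCAA. Its groups overlapped, BCAA replicate 3 lying above vehicle replicate 3 (log2 fold change -0.16, SE 0.07; edgeR adjusted p = 0.41), and without vehicle replicate 1 the value was -0.11. RefSeq names 10 further copies of Psmb3, pseudogenes or like genes, among which reads may be split or lost. For Psmb1 the log2 fold change was -0.13 (SE 0.08). Without vehicle replicate 1 the beta median was again -0.14, and with both libraries numbered 1 left out it was -0.09, with 6 of 7 genes below 0.

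The 3 constitutive catalytic subunits differed in how evenly their libraries lay. Psmb7, which carries the trypsin-like site, was at 102, 103 and 102 CPM with vehicle and at 93.0, 90.5 and 95.6 CPM with BCAA. The groups did not overlap and the spread within each was narrow (log2 fold change -0.14, SE 0.07; edgeR adjusted p = 0.43). Psmb5, which carries the chymotrypsin-like site, was at 116, 151 and 145 CPM with vehicle and at 120, 139 and 123 CPM with BCAA. Vehicle replicate 1 was here the lowest library of all 6, the reverse of its place in Psmb2. The log2 fold change was -0.11 (SE 0.10; edgeR adjusted p = 0.70), and it ran from -0.22 without vehicle replicate 1 (adjusted p = 0.058) to -0.04 without vehicle replicate 2 (adjusted p = 0.94). Psmb6, which carries the caspase-like site, was at 21.9, 18.1 and 14.2 CPM with vehicle and at 16.7, 16.6 and 17.8 CPM with BCAA. Its vehicle libraries spanned all BCAA values (log2 fold change -0.09, SE 0.14), the sign turned without vehicle replicate 1 (0.07), and RefSeq names 3 further copies of the gene.

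The alpha subunits, which form the gated outer rings, were set apart by a single library. All 7 tested genes (Psma1 to Psma7) had a log2 fold change below 0 (median -0.13; 6 of 7 without scaling factors), and none had an unadjusted p under 0.05. Their summed level was 1244, 1024 and 1002 CPM with vehicle and 949, 1003 and 1056 CPM with BCAA. Vehicle replicate 1 alone lay above the range of the BCAA libraries. Psma4 was at 197, 130 and 134 CPM with vehicle and at 132, 135 and 144 CPM with BCAA. Psma6 was at 281, 216 and 214 CPM with vehicle and at 199, 203 and 228 CPM with BCAA. In both genes, vehicle replicates 2 and 3 lay within or close to the BCAA values and only vehicle replicate 1 was high. Without that library the alpha median was 0.011, with 3 of 7 genes below 0. Psma5, at the upper end of the class, was at 128, 138 and 134 CPM with vehicle and at 120, 141 and 137 CPM with BCAA. Its groups overlapped fully (log2 fold change -0.013, SE 0.08; edgeR adjusted p = 0.97), and the sign turned without scaling factors (0.015). Psma7 did not share the peak in vehicle replicate 1, with 186, 201 and 180.3 CPM with vehicle and 159, 179.6 and 180.2 CPM with BCAA, so that its groups were separated by a hair (log2 fold change -0.13, SE 0.07). Psma1, Psma2 and Psma3 had log2 fold changes of -0.08, -0.14 and -0.07 with SE from 0.09 to 0.13.

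The base ATPases form the ring that unfolds and feeds in substrates. Of these genes 3 of 6 were lower at an unadjusted p under 0.05 (5.84% of all genes tested), and none was called. All 6 had a log2 fold change below 0 (median -0.12), with 5 of 6 below 0 when no scaling factors were used. Psmc1 was at 205, 207 and 199.8 CPM with vehicle and at 173, 189.6 and 179 CPM with BCAA. Vehicle libraries agreed closely and all lay above the BCAA libraries (log2 fold change -0.18, SE 0.06; edgeR adjusted p = 0.30). Psmc4 was at 165, 169 and 161 CPM with vehicle and at 139, 152 and 149 CPM with BCAA (log2 fold change -0.17, SE 0.07; edgeR adjusted p = 0.34). Psmc3 was at 232, 235 and 223 CPM with vehicle and at 204, 208 and 210.5 CPM with BCAA (log2 fold change -0.15, SE 0.06; edgeR adjusted p = 0.36). In none of these 3 genes was vehicle replicate 1 the highest library, but BCAA replicate 1 was the lowest in each. With both libraries numbered 1 left out, the 3 genes stayed at log2 fold changes of -0.14, -0.13 and -0.13. Without BCAA replicate 1 alone they had -0.15, -0.13 and -0.14. In that fit 4 of 6 base genes were below 0, and 0 had an unadjusted p under 0.05 (4.03% of all genes were lower there). Without BCAA replicate 3, or without vehicle replicate 2, 1 of 6 was lower at that level. Psmc6 showed the alpha pattern instead, at 164, 131 and 133 CPM with vehicle and at 134, 136 and 153 CPM with BCAA. Its log2 fold change was -0.018 (SE 0.09; edgeR adjusted p = 0.96), and the sign turned without scaling factors (0.014) and without vehicle replicate 1 (0.10). Psmc2 and Psmc5 had log2 fold changes of -0.09 and -0.06.

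Of the 14 Psmd genes 13 had a log2 fold change below 0 (median -0.10; 10 of 14 without scaling factors), and none was called. They are not all lid subunits: Psmd1, Psmd2 and Psmd4 encode non-ATPase parts of the base, including scaffolds and a ubiquitin receptor, and Psmd5, Psmd9 and Psmd10 encode chaperones that help assemble it. The 8 lid subunits proper were all below 0 (median -0.11), 6 of 8 without scaling factors. Psmd14 encodes the lid enzyme that cuts ubiquitin off substrates. It was at 69.5, 79.2 and 92.1 CPM with vehicle and at 71.8, 65.6 and 69.8 CPM with BCAA. The vehicle libraries were widely spread and vehicle replicate 1 lay among the BCAA libraries. The log2 fold change was -0.22 (SE 0.09; edgeR adjusted p = 0.40). It was the only member that passed the threshold in any alternative: without vehicle replicate 1 it was -0.31 (adjusted p = 0.020; 3.93% of all genes were called in that fit), and with both libraries numbered 1 left out -0.34 (adjusted p = 0.0027; 5.72% of all genes called). Without vehicle replicate 3, its highest library, the value was -0.11 (edgeR adjusted p = 0.73).

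Psmd6, a lid scaffold subunit, was at 138, 115 and 119 CPM with vehicle and at 111, 104 and 112 CPM with BCAA. The groups did not overlap, with vehicle replicate 1 well above the rest (log2 fold change -0.18, SE 0.08; edgeR adjusted p = 0.38), and without it the value was -0.10. Psmd3, also a lid scaffold, was at 167, 172 and 173.5 CPM with vehicle and at 145, 160.3 and 157 CPM with BCAA. Its groups did not overlap and vehicle replicate 1 was the lowest vehicle library (log2 fold change -0.15, SE 0.07; edgeR adjusted p = 0.40). The other lid subunits ran from -0.12 (Psmd7) to -0.0005 (Psmd8). Among the base parts, Psmd1 had -0.12, Psmd4 -0.09 and the scaffold gene Psmd2 -0.0014. Psmd5, a base chaperone, was the only Psmd gene above 0, at 71.0, 62.1 and 63.5 CPM with vehicle and at 68.5, 65.3 and 69.4 CPM with BCAA. Its groups overlapped (log2 fold change 0.05, SE 0.08; edgeR adjusted p = 0.85). Sem1, a small lid subunit outside the Psm naming, was at 66.0, 79.2 and 70.7 CPM with vehicle and at 58.3, 63.1 and 65.9 CPM with BCAA, separated but barely so (log2 fold change -0.21, SE 0.09; edgeR adjusted p = 0.36, from 0.0497 to 0.73 over the alternatives).

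Of the 3 immunoproteasome genes, 2 had a log2 fold change above 0 and 1 below, none was called, and the 95% interval of each included 0. Psmb8, the replacement for Psmb5, was at 13.0, 12.9 and 13.9 CPM with vehicle and at 12.6, 15.8 and 14.7 CPM with BCAA. Its groups overlapped through BCAA replicate 1, the lowest library (log2 fold change 0.11, SE 0.13; edgeR adjusted p = 0.77). Psmb9, the replacement for Psmb6, had 69, 95 and 77 counts with vehicle and 66, 78 and 113 counts with BCAA, which is 4.94, 6.03 and 6.03 CPM and 4.45, 4.94 and 8.85 CPM. Only BCAA replicate 3 lay above the vehicle libraries (log2 fold change 0.08, SE 0.24; edgeR adjusted p = 0.92), and without it the value was -0.27. Psmb10, the replacement for Psmb7, was at 10.2, 13.5 and 11.8 CPM with vehicle and at 9.04, 13.5 and 11.9 CPM with BCAA. Its groups overlapped throughout (log2 fold change -0.05, SE 0.16; edgeR adjusted p = 0.94). The 95% intervals, in percent of the vehicle level, ran from -10.2% to 30.4% for Psmb8, from -25.6% to 51.1% for Psmb9 and from -24.0% to 23.3% for Psmb10.

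**Figure D4:**
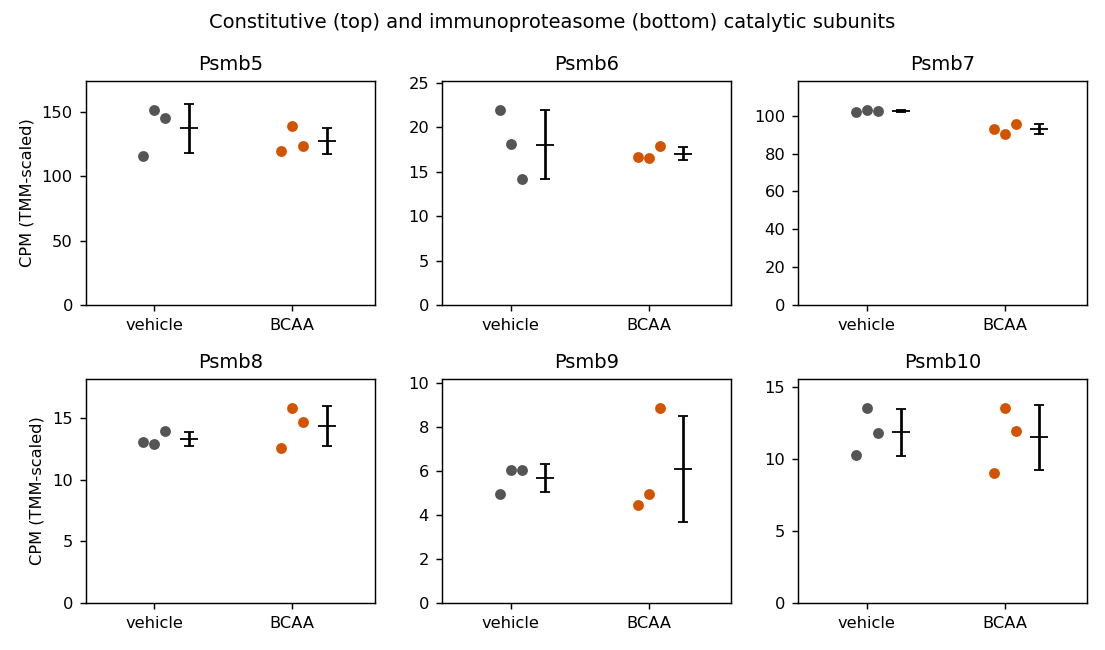
CPM in each library (points, replicates 1 to 3 from left to right within a group) of the constitutive catalytic genes Psmb5, Psmb6 and Psmb7 (top) and their immunoproteasome counterparts Psmb8, Psmb9 and Psmb10 (bottom), with mean and SD (n = 3) beside them; each axis starts at 0. Groups are separate only in Psmb7, where all BCAA points lie below all vehicle points.

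The balance between alternative and constitutive subunits was followed as a ratio of counts within each library. There were 11.3, 8.58 and 9.62 counts of Psmb8 per 100 of Psmb5 with vehicle and 10.6, 11.4 and 12.0 with BCAA. The BCAA range lay mostly above the vehicle range but vehicle replicate 1 fell inside it. Psmb9 per 100 of Psmb6 was 22.5, 33.3 and 42.5 with vehicle and 26.7, 29.8 and 49.6 with BCAA. Psmb10 per 100 of Psmb7 was 10.0, 13.1 and 11.5 with vehicle and 9.72, 14.9 and 12.4 with BCAA, again with full overlap. Leukocytes are known to hold more immunoproteasome than stromal cells. The summed leukocyte markers were at 328 to 340 CPM with vehicle and 331 to 359 CPM with BCAA, and their part in these levels was not tested.

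The promoters of Psmb8 and Psmb10, but not that of Psmb9, carry an interferon motif. The core of the interferon-stimulated response element (GAAA, any 2 bases, then GAAA, on either strand) was in the windows of 7 of 43 members (16.3%, against 3.92% of all windows), namely Psma4, Psmb3, Psmb8, Psmb10, Psmd7, Psme2 and Psmg4. The windows of Psmb8 and Psmb10 are shown with that motif in capitals, as the immunoproteasome genes that hold it.
Psmb8 (chr20:4656982-4657281, minus strand): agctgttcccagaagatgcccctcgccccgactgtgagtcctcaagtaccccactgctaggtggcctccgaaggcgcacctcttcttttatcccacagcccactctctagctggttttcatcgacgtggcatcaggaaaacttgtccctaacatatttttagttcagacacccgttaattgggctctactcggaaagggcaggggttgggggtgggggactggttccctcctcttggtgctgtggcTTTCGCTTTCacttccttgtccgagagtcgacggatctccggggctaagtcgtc
Psmb10 (chr19:50743243-50743542, minus strand): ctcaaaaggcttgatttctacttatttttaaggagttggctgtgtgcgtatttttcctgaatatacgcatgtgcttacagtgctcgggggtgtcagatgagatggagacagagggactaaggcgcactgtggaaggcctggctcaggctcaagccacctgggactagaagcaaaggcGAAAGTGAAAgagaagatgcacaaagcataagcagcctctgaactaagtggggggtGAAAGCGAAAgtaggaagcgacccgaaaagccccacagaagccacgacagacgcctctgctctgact
Psmb8 has 1 match, from base -4 and reading on the opposite strand, and Psmb10 has 2, from bases -73 and -17. The 7 carriers had a median log2 fold change of -0.12 and the 34 other tested members with a window -0.10. Psmb9 had no match in its window, which overlaps that of the peptide transporter gene Tap1 on the opposite strand. The search took in only these letters, so other forms of interferon element were not looked for.

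Among the regulators, Psme4 and Psmf1 lay on opposite sides of 0 and neither passed the threshold. Psme4, the activator that caps the core in the nucleus, had the highest log2 fold change of all members. It was at 137, 124 and 128 CPM with vehicle and at 153, 137 and 138 CPM with BCAA. The groups overlapped through vehicle replicate 1 (log2 fold change 0.14, SE 0.07; edgeR adjusted p = 0.48), and the value was positive in each of the 12 alternative analyses, the lowest being 0.08 without BCAA replicate 1. Psmf1, which encodes a protein first described as a proteasome inhibitor, was at 54.9, 53.0 and 51.7 CPM with vehicle and at 48.9, 43.8 and 46.3 CPM with BCAA. Its groups did not overlap and the sign was negative in each of the 12 alternatives (log2 fold change -0.20, SE 0.08; edgeR adjusted p = 0.35). The 4 core assembly chaperones Psmg1 to Psmg4 had log2 fold changes from -0.17 to -0.10, all with overlapping groups, and the nuclear activator gene Psme3 had -0.017. Psme2, an interferon-induced activator subunit, was at 13.6, 7.43 and 9.64 CPM with vehicle and at 11.3, 8.55 and 7.44 CPM with BCAA (log2 fold change -0.16, SE 0.21).

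The untested members were 3 genes with almost no counts. Psma8, a testis alpha subunit, had 1 count in BCAA replicate 2 and 0 elsewhere. Psmb11, the thymus beta subunit, had 3, 1 and 2 counts with vehicle and 2, 0 and 0 with BCAA. Psme1, the partner of Psme2, had 4 counts in BCAA replicate 3 and 0 in the other 5 libraries. The row for its processed copy Psme1-ps1, which the rule does not take in, held 377, 425 and 365 counts with vehicle and 340, 416 and 320 with BCAA, so that the level of Psme1 itself cannot be read from these counts. RefSeq names such copies for 19 of the 48 members, 52 copies in all, and how the authors' counting treated reads shared with them is not given in the sources used here.

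Genes that act beside the proteasome gave 0 calls in each of 6 lists, where 0.228% of all genes tested were called. At an unadjusted p under 0.05 the lists held 0 to 2 genes each, of 3 to 13 tested. Over all genes tested 5.84% were lower and 5.95% higher at that level, so such counts say little about lists this short. Regulators of the NFE2L1 response had 5 of 10 tested below 0 (median 0.012). Nfe2l1 itself had a mean of 164 ± 17.5 CPM with vehicle against 174 ± 9.70 CPM with BCAA (SD, n = 3 each; log2 fold change 0.08, SE 0.08), and its log2 fold change was 0.0021 without vehicle replicate 1. Ddi2, the protease that activates its product, had 0.21 (SE 0.09; edgeR adjusted p = 0.38), and 0.12 without BCAA replicate 1. Fbxw7, a ligase subunit that targets it, had 0.38 (SE 0.17; edgeR adjusted p = 0.42) and Syvn1, a ligase of the endoplasmic reticulum, -0.09.

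Proteins that bind the proteasome had 9 of 13 tested below 0 (median -0.05), among them the ubiquitin receptor gene Adrm1 at -0.12 (SE 0.10), which ran from -0.23 without vehicle replicate 1 to -0.05 without vehicle replicate 2. Zfand2a, a stress-induced zinc finger gene whose product binds proteasomes, was at 378, 382 and 386.5 CPM with vehicle and at 469.7, 479 and 454 CPM with BCAA. This was the clearest separation near the module (log2 fold change 0.29, SE 0.06; edgeR adjusted p = 0.057), and the adjusted p ran from 0.00011 to 0.33 over the alternatives. Zfand5, of the same family, had 0.14 (SE 0.07; edgeR adjusted p = 0.45), and its adjusted p ran from 0.018 to 0.77 over the alternatives. The core assembly factor gene Pomp was not tested, with 3, 6 and 5 counts with vehicle and 13, 5 and 4 with BCAA.

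Of the ubiquitin and E1 enzyme genes used here, 2 of 3 tested were below 0 (median -0.0077). Rps27a, which encodes ubiquitin fused to a ribosomal protein, had -0.20 (SE 0.17), and the E1 genes Uba1 and Uba6, whose products activate ubiquitin, had -0.0077 (SE 0.06) and 0.12 (SE 0.08). The segregase p97 and its cofactors had 6 of 9 below 0 (median -0.0089), with the p97 gene Vcp averaging 768 ± 11.4 CPM with vehicle against 739 ± 12.4 CPM with BCAA (SD, n = 3 each; log2 fold change -0.06, SE 0.06). Its cofactors Ubxn1, Nsfl1c and Ube4b had -0.11, -0.09 and 0.12.

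Antigen processing genes had 5 of 9 below 0 (median -0.06). Tap1 was at 29.9, 29.4 and 34.1 CPM with vehicle and at 38.2, 35.7 and 35.0 CPM with BCAA, with no overlap (log2 fold change 0.22, SE 0.09; edgeR adjusted p = 0.36). The class I light chain gene B2m had -0.08 (SE 0.07) and the chaperone gene Calr -0.08 (SE 0.07), against -0.0010 and -0.0043 without vehicle replicate 1. Ubiquitin ligases of muscle wasting and quality control had 3 of 9 below 0 (median 0.08). Fbxo32, a ligase gene raised in wasting muscle, averaged 21.2 ± 2.06 CPM with vehicle against 30.0 ± 3.08 CPM with BCAA (SD, n = 3 each; log2 fold change 0.51, SE 0.11; edgeR adjusted p = 0.071). Its groups did not overlap, and its adjusted p ran from 0.015 to 0.32 over the alternatives. Trim63, a muscle-type ligase gene of the same list, lay the other way at -0.46 (SE 0.40), on only 9 to 30 counts a library. Ubr2, a ligase of the N-degron pathway, had 0.11 (SE 0.09) and Bag6, a chaperone of mislocalized proteins, -0.10 (SE 0.07).

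**Figure D5:**
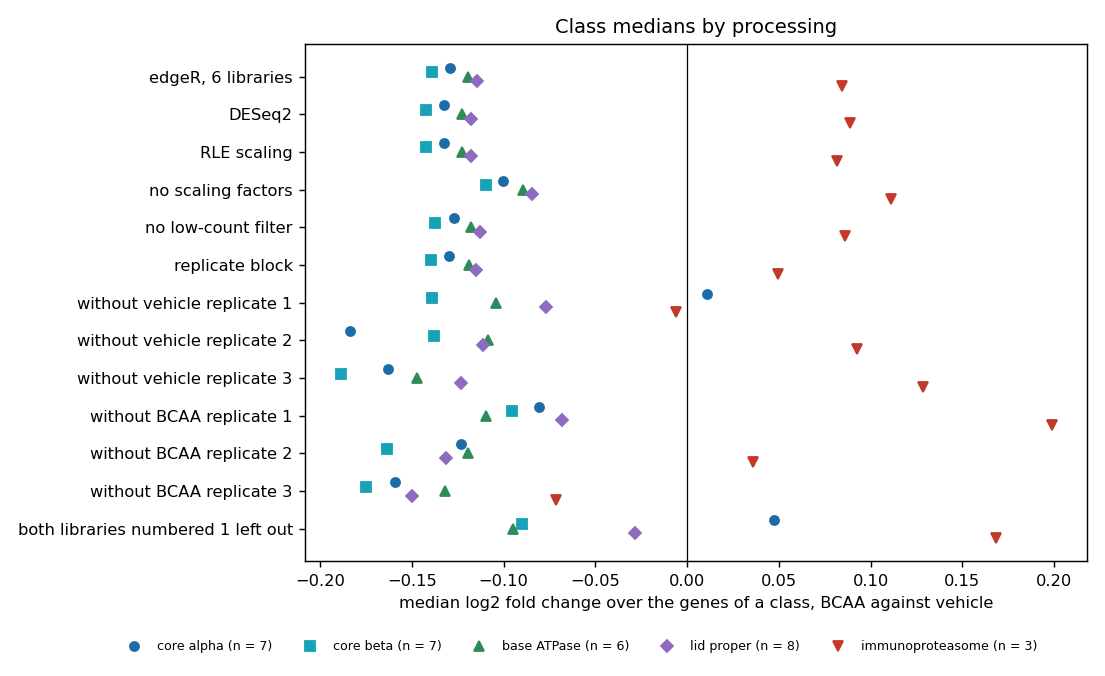
Median log2 fold change, BCAA against vehicle, over the tested genes of 5 classes (markers) under the main analysis (top line) and 12 alternatives. The beta, base ATPase and lid medians lie below 0 throughout, whereas the alpha median crosses to 0.011 without vehicle replicate 1 and 0.05 with both libraries numbered 1 left out, and the immunoproteasome median falls on both sides of 0.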

How the data were processed

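Counts of reads per gene symbol in 6 libraries were used as the authors deposited them, not normalized and with replicates unpooled. The submitters' processing notes list Trimmomatic, FastQC, STAR and HTSeq with the build rn6. The sources used here give no versions, annotation or strand setting. Totals of 12725344 to 15739731 counts limit the precision of thinly counted genes, and intervals cover the spread between libraries. Columns were matched to libraries by title. The 15 pairs of libraries had a chi-square per degree of freedom of 2.65 to 18.1 over genes with at least 10 counts, so none repeats another. Vehicle replicate 1 stood apart, at 16.9 and 15.1 from vehicle replicates 2 and 3, which were at 2.65 from each other. From the BCAA libraries it was at 18.1, 15.8 and 9.38, in the order of their numbers.

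Groups were compared by edgeR's quasi-likelihood method (version 4.0.16, R 4.3.3, robust) on all 6 libraries with group as the only term, TMM scaling and filterByExpr (minimum count 10, minimum total 15), which left 12298 of 21857 genes; p-values were adjusted by Benjamini-Hochberg over all of them and called under 0.05. On simulated counts it called 16% of the genes changed 1.25-fold, 60% of those changed 1.5-fold, 74% at 2-fold and 92% at 3-fold. Standard errors are the fold change over the square root of F. Library deviations use log2(CPM + 0.1). DESeq2 1.42.0 (adjusted p left as NA where given so), RLE or no scaling, no filter, a replicate block and leaving out libraries were alternatives.

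Members and lists were chosen with earlier results of these data known. Values of every library are given for Psmb5 to Psmb10, members with an unadjusted p under 0.05 and the highest and lowest of each class; from each of the 6 pathway lists up to 3 genes with the smallest p and Nfe2l1, Pomp, Adrm1 and Vcp are named. Of the genes first listed, 3 are not reported here and were left out of the lists. Psma4, Psma6, Psma7, Psme2, Sem1 (by library), Trim63 and Psme1-ps1 were added after their values were seen. Paaf1, Ecpas, Ubb and Ufd1 were not analysed here. Coordinates of promoters are those of GRCr8, not rn6.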

Additional observations from a re-analysis of the deposited data

How the results depend on the processing

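No member was called in the main analysis or in 10 of its 12 alternatives; leaving out single libraries gave 0 to 1. Over all genes 28 were called, 127 with DESeq2, 124 without the low-count filter, 7 to 491 with single libraries left out (491 without vehicle replicate 1, 7 to 12 without any other) and 704 with both libraries numbered 1 left out. That last setting, chosen after seeing the data, called 1 member and moved the median over the members from -0.12 to -0.023, the core from -0.14 to -0.0041, all Psmd genes from -0.10 to -0.035 and the regulators from -0.15 to -0.050. The Psmd median ran from -0.13 to -0.053 with single libraries left out. With both libraries numbered 1 left out, 15 of 45 members changed sign, among them 6 of the 7 alpha genes. Of the genes named by rule, those that changed sign were Psmb6 (0.082), Psmb10 (0.0062), Psma5 (0.026), Psmc6 (0.13), B2m (0.041), Calr (0.012), Nfe2l1 (-0.039), Ubr2 (-0.036) and Rps27a (0.094). Without scaling factors 6 members changed sign, including Psma5 (0.015) and Psmc6 (0.014), as did Uba1 (0.021). The median over all genes was 0.033 in that fit, against 0.0035 in the main analysis. With single libraries left out, 17 of 45 members changed sign at least once; log2 fold changes of named genes that did so ran from -0.23 to 0.070 for Psmb6, -0.27 to 0.26 for Psmb9, -0.19 to 0.10 for Psmb10, -0.061 to 0.053 for Psma5, -0.082 to 0.10 for Psmc6, -0.30 to 0.025 for Rps27a and -0.028 to 0.017 for Uba1. The cause was not tested. When replicate block terms were added, 6 genes and 0 members were called and the member median was -0.12. Deviations of equally numbered libraries correlated at -0.065, 0.10 and -0.14, and the numbers were not taken as pairs in the main analysis. Count totals were close between vehicle and BCAA libraries of the same number: 14484051 and 14482260, 15739731 and 15654060, and 12725344 and 12802663. Deviations taken within groups of 3 cannot settle whether the numbers mark pairs. Psmb9 was tested on 66 to 113 counts a library, and Psma8, Psmb11 and Psme1, with 0 to 4, were too thinly counted to test.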

Other observations

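In the RefSeq promoter table, 5 members have a start site window that overlaps that of a named gene on the opposite strand: Psma2 with Mrpl32, Psmb9 with Tap1, Psmc5 with Ftsj3, Psmd10 with Atg4a and Psmg2 with Cep76. Mrpl32, a mitochondrial ribosomal protein gene, was at 40.0, 21.2 and 24.6 CPM in the vehicle libraries and at 27.2, 26.2 and 26.2 CPM in the BCAA libraries. Vehicle replicate 1 was thus the highest library for it, as it was for Psma2. Ftsj3, a ribosome biogenesis gene, was at 69.3, 63.7 and 62.4 CPM and at 61.7, 58.9 and 58.8 CPM, so that its groups did not overlap, whereas those of Psmc5 did. The log2 fold changes of the partners were -0.11 (SE 0.20) for Mrpl32, 0.22 (SE 0.09) for Tap1, -0.12 (SE 0.08) for Ftsj3, -0.25 (SE 0.15) for Atg4a and 0.24 (SE 0.12) for Cep76, and edgeR's quasi-likelihood test called 0 of them (lowest adjusted p = 0.36, 1 with an unadjusted p under 0.05). Over all genes tested 0.228% were called, and 5.84% were lower and 5.95% higher at an unadjusted p under 0.05. These pairs were chosen after the data were seen.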
